A study of Mus musculus with 12 samples.

Results

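The HMGA, LIN28 and IGF2BP genes are oncofetal genes, active in embryonic tissue, mostly silent in the adult and switched on again in many tumors. The 7 members (Hmga1, Hmga2, Lin28a, Lin28b, Igf2bp1, Igf2bp2 and Igf2bp3) were taken by gene symbol from the 34513 genes of the deposited count table, and each matched 1 gene. RNA-seq had been performed on cultures of 3 mouse lines, the nontumorigenic melanocyte line MelanA and the melanoma lines B16F0 and B16F10. Each line was sequenced with no treatment and with SX-682, an antagonist of the chemokine receptors CXCR1 and CXCR2, to ask what the drug does to melanoma cells in the absence of stroma and immune cells. Each of the 6 groups held 2 libraries, and the labels give no dose or time for these cultures and do not say whether the 2 came from separate cultures. The p-values therefore measure only the spread between libraries, which may be technical, and each line stands for itself alone.

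Library totals ranged from 48876982 to 85322092 counts, and 18338 genes passed the expression filter and were tested. Levels are given as CPM, the count scaled to a common library size with TMM factors, and, where genes are compared with each other, as CPM per kilobase of exon. The 10 melanocyte lineage markers together reached 1348 to 1377 CPM in untreated MelanA, 18868 to 18952 in untreated B16F0 and 24661 to 24695 in untreated B16F10. The melanocyte factor Sox10 was at 670 CPM in untreated MelanA and Mitf at 102. Of the pigment cell genes, Dct was at 355, Mlana at 116 and Tyrp1 at 107 CPM there, whereas Pmel was at 8.11, Tyr at 0.826 and the receptor gene Kit at 0.0857. The 8 fibroblast markers summed to 216 to 218 CPM in untreated MelanA, against 27.2 to 28.6 in B16F0 and 9.77 to 10.7 in B16F10. With SX-682 the melanocyte sum was 1350 to 1359 CPM in MelanA, 16031 to 16223 in B16F0 and 15070 to 15313 in B16F10, and the fibroblast sum was 225 CPM in both MelanA libraries, 32.0 to 33.9 in B16F0 and 10.4 to 11.1 in B16F10. The sum of 6 immune markers was 23.2 to 23.4 CPM in untreated MelanA and 48.9 to 49.8 with SX-682, where the lysosomal gene Cd68 went from 16.02 to 44.6 CPM (log2 change 1.48, edgeR adjusted p = 1e-17). In B16F0 this sum was 10.6 to 12.5 CPM untreated and 14.4 to 16.3 treated, and in B16F10 25.9 to 26.9 and 24.6 to 25.3, and the leukocyte gene Ptprc was at no more than 0.155 CPM on average in any group. Sums of 6 keratinocyte and 4 endothelial markers reached at most 6.59 and 2.43 CPM. What part these marker differences have in the values below was not tested.

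The members belong to 1 regulatory circuit. LIN28A and LIN28B are RNA-binding proteins that block the maturation of let-7 microRNAs, and let-7 in turn lowers mRNAs that carry sites for it, among them those of LIN28, HMGA2 and the IGF2BP proteins. HMGA1 and HMGA2 are small chromatin proteins that bind AT-rich DNA and bend it, and the IGF2BP proteins bind mRNAs, many of them marked with N6-methyladenosine (m6A), and steady them or carry them within the cell.

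The let-7 microRNAs are shown because their seed, bases 2 to 8, is what pairs with a target mRNA. Of 11 mouse let-7 family members listed by RefSeq (GRCm38.p6), 10 share the seed GAGGUAG, and the remaining member, let-7j, has GAGGUAU. Mature sequences are given from 5′ to 3′ with the seed in capitals.

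mmu-let-7a-5p: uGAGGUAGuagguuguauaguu

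mmu-let-7c-5p: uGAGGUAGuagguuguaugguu

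mmu-miR-98-5p: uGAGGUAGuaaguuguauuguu

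The longest annotated 3′ UTR of each member (GENCODE M21, GRCm38) was searched on the transcript strand for CTACCTC, the complement of that seed, and for TACCTCA, which pairs with bases 2 to 7 and ends in an A; CTACCTCA contains both. All 7 members held CTACCTC, as did 9.022% of the 3′ UTRs of 21037 protein-coding genes. Hmga2, Lin28b and Igf2bp1 held 4 matches each. Among UTRs within 10% of the same length, 0.18% of 1114 held as many or more for Hmga2, 0.494% of 607 for Lin28b and 0.41% of 244 for Igf2bp1. Each share counts the member's own UTR, so the shares of other UTRs are lower. Lin28a held 2 matches, and Hmga1, Igf2bp2 and Igf2bp3 held 1 each. For those with a single match, between 8.458% and 14.317% of UTRs of like length, the member's own included, held at least 1. The match nearest the stop codon is shown for each member, on the transcript strand, with the matching bases in capitals.

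Hmga1, chr17:27563278-27563298, plus strand: cctctgttcacaaaCTACCTC

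Hmga2, chr10:120364224-120364245, minus strand: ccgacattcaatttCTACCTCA

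Lin28a, chr4:134005189-134005210, minus strand: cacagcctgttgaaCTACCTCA

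Lin28b, chr10:45381022-45381043, minus strand: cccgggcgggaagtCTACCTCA

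Igf2bp1, chr11:95961778-95961799, minus strand: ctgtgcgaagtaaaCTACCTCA

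Igf2bp2, chr16:22059473-22059494, minus strand: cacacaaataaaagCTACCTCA

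Igf2bp3, chr6:49086787-49086808, minus strand: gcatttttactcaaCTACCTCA

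These sites lay 36 bases after the stop codon in Lin28b and 58 bases after it in Hmga2, and between 548 and 1715 bases after it in the others. Only Hmga1 lacked the 8-base form that ends in an A. A match is a description of letters, and mature let-7 was not measured in these libraries.

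**Figure D1:**
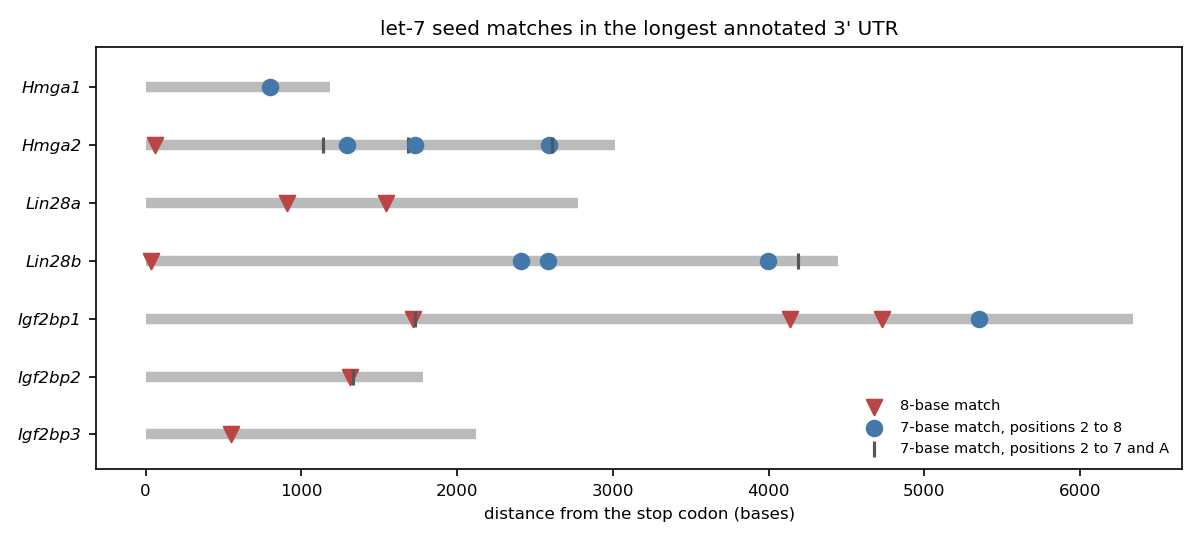
Seed matches of let-7 in the longest annotated 3′ UTR of each member, drawn to scale from the stop codon in bases (grey bars are the UTRs). Red triangles are 8-base matches, blue circles are 7-base matches to seed positions 2 to 8, and dark ticks are matches to positions 2 to 7 with an A. Hmga2, Lin28b and Igf2bp1 hold 4 matches of the first 2 kinds, and the first match of Hmga2 and of Lin28b lies beside the stop codon.

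The untreated lines differed in every member that could be tested. Lin28a did not pass the filter, and the other 6 members were called in each of the 3 pairs of untreated lines by edgeR's quasi-likelihood test at a Benjamini-Hochberg adjusted p of 0.05. The share of all tested genes called was itself 75.9% between B16F0 and MelanA, 74.2% between B16F10 and MelanA and 62.0% between B16F10 and B16F0, so the count of members called is near what most genes show, and the sizes carry the description. Hmga1 rose from MelanA to B16F0 to B16F10, whereas Igf2bp2 was low only in B16F0 and Lin28b was present at more than traces only there.

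Per kilobase of exon, Hmga1 was the highest member in every untreated line and Hmga2 the next. Hmga1 stood at 62.6 ± 2.1 CPM per kb (SD, n = 2) in MelanA, 129 ± 1.0 in B16F0 and 234.8 ± 0.71 in B16F10. Hmga2 stood at 13.2 ± 0.47, 9.52 ± 0.25 and 15.4 ± 0.21 CPM per kb. In MelanA, Igf2bp3 and Igf2bp2 followed at 8.55 ± 0.32 and 7.998 ± 0.30 CPM per kb, a gap no larger than the sum of their SDs, and Igf2bp1 was lower at 1.98 ± 0.021. In B16F0 the order was Igf2bp3 at 3.32 ± 0.047, Igf2bp1 at 1.53 ± 0.10, Igf2bp2 at 0.946 ± 0.048 and Lin28b at 0.405 ± 0.063 CPM per kb. B16F10 placed Igf2bp2 at 7.03 ± 0.23, Igf2bp3 at 5.22 ± 0.067 and Igf2bp1 at 2.26 ± 0.029 CPM per kb, with no count for Lin28b.

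Hmga1 (chr17:27556497-27563674, plus strand) encodes the HMGA protein found in most dividing cells of the embryo. Its untreated level was 129.9 and 136 CPM in the MelanA libraries, 273 and 276 CPM in B16F0, and 498 and 499.95 CPM in B16F10. The lines did not overlap, and the log2 difference from MelanA was 1.05 (SE 0.027, edgeR adjusted p = 2e-24) for B16F0 and 1.91 (SE 0.027, adjusted p = 6.4e-31) for B16F10. B16F10 was also above B16F0, by 0.86 (SE 0.027, adjusted p = 4.4e-22).

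With SX-682, Hmga1 rose in all 3 lines, which 11.3% of the tested genes did. In MelanA the treated libraries were at 284 and 281 CPM, a log2 change of 1.09 (SE 0.027, edgeR adjusted p = 2.2e-23) or 2.12-fold. This brought the MelanA level next to that of untreated B16F0. The treated B16F0 libraries reached 300.04 and 317 CPM (log2 change 0.17, SE 0.027, adjusted p = 4.6e-06), and the treated B16F10 libraries 545 and 555 CPM (0.14, SE 0.026, adjusted p = 3.1e-05). In each line both treated libraries were above both untreated ones, but the change was far larger in MelanA. The change in B16F0 was lower than that in MelanA by 0.92 (log2 difference -0.92, SE 0.038, edgeR adjusted p = 9.2e-18) and that in B16F10 differed by -0.94 (SE 0.038, adjusted p = 3.9e-18). Between B16F10 and B16F0 the difference in change was -0.03 (95% interval -0.102 to 0.0512, adjusted p = 0.71).

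Hmga1 has a near-identical retrocopy in the table, Hmga1b on chromosome 11 (chr11:120762794-120764419), whose transcript matches that of Hmga1 at 99.813% of 1602 aligned bases with 3 mismatches. Reads from the 2 genes can hardly be told apart, so both values are uncertain to that extent. Hmga1b held between 0.655% and 0.969% of their joint counts in every library, and its own log2 changes were 1.07, 0.47 and 0.41 in MelanA, B16F0 and B16F10. Added together as 1 gene, a choice made after seeing the data, the pair had log2 changes of 1.09, 0.17 and 0.14 in the 3 lines. At so small a share of Hmga1b the sum could hardly differ from Hmga1 alone. It also does not recover any reads dropped in counting for matching both genes. Hmga1 also shares 4.8% of its exonic bases with AI413582 on the opposite strand, and the use of strand in counting is not given in the sources used here.

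Hmga2 (chr10:120361275-120476469, minus strand) encodes the HMGA protein of mesenchymal growth, a classic let-7 target through the sites shown above. Its untreated level was 91.4 and 87.0 CPM in MelanA, 63.2 and 65.7 CPM in B16F0, and 103 and 105 CPM in B16F10. B16F0 was below MelanA by a log2 difference of -0.47 (SE 0.039, edgeR adjusted p = 4e-12), and B16F10 was above it by 0.23 (SE 0.038, adjusted p = 3.6e-06). From B16F0 to B16F10 the log2 difference was 0.70 (SE 0.039, adjusted p = 9.7e-16).

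The SX-682 change of Hmga2 took a different direction by line. MelanA libraries rose to 101 and 101 CPM (log2 change 0.18, SE 0.037, edgeR adjusted p = 0.00018). B16F0 libraries fell to 59.8 and 55.1 CPM (-0.16, SE 0.041, adjusted p = 0.0013), and without the second of these the change was -0.11 (adjusted p = 0.048). B16F10 libraries fell to 45.7 and 48.4 CPM, a log2 change of -1.15 (SE 0.041, adjusted p = 3.8e-20) or 2.22-fold lower. The treated and untreated libraries did not overlap in any line, and the treated B16F10 libraries were the lowest of all 12. All 3 pairs of lines differed in this change. The log2 difference was -0.34 (SE 0.056, edgeR adjusted p = 1.1e-05) for B16F0 minus MelanA, -1.33 (SE 0.055, adjusted p = 1e-17) for B16F10 minus MelanA and -0.99 (SE 0.058, adjusted p = 7.6e-14) for B16F10 minus B16F0.

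Within the HMGA pair, Hmga2 made up 17.4% ± 0.99 (SD, n = 2) of the summed per-kb level in untreated MelanA and 10.1% ± 0.12 with SX-682. In B16F0 the share was 6.85% ± 0.12 untreated and 5.52% ± 0.51 treated, and in B16F10 it was 6.16% ± 0.059 and 2.61% ± 0.073. The sum of the pair was 75.8 ± 1.6 CPM per kb in untreated MelanA and 147.7 ± 1.1 with the drug, 138.9 ± 1.3 and 153.8 ± 5.3 in B16F0, and 250.2 ± 0.92 and 265.8 ± 3.4 in B16F10.

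**Figure D2:**
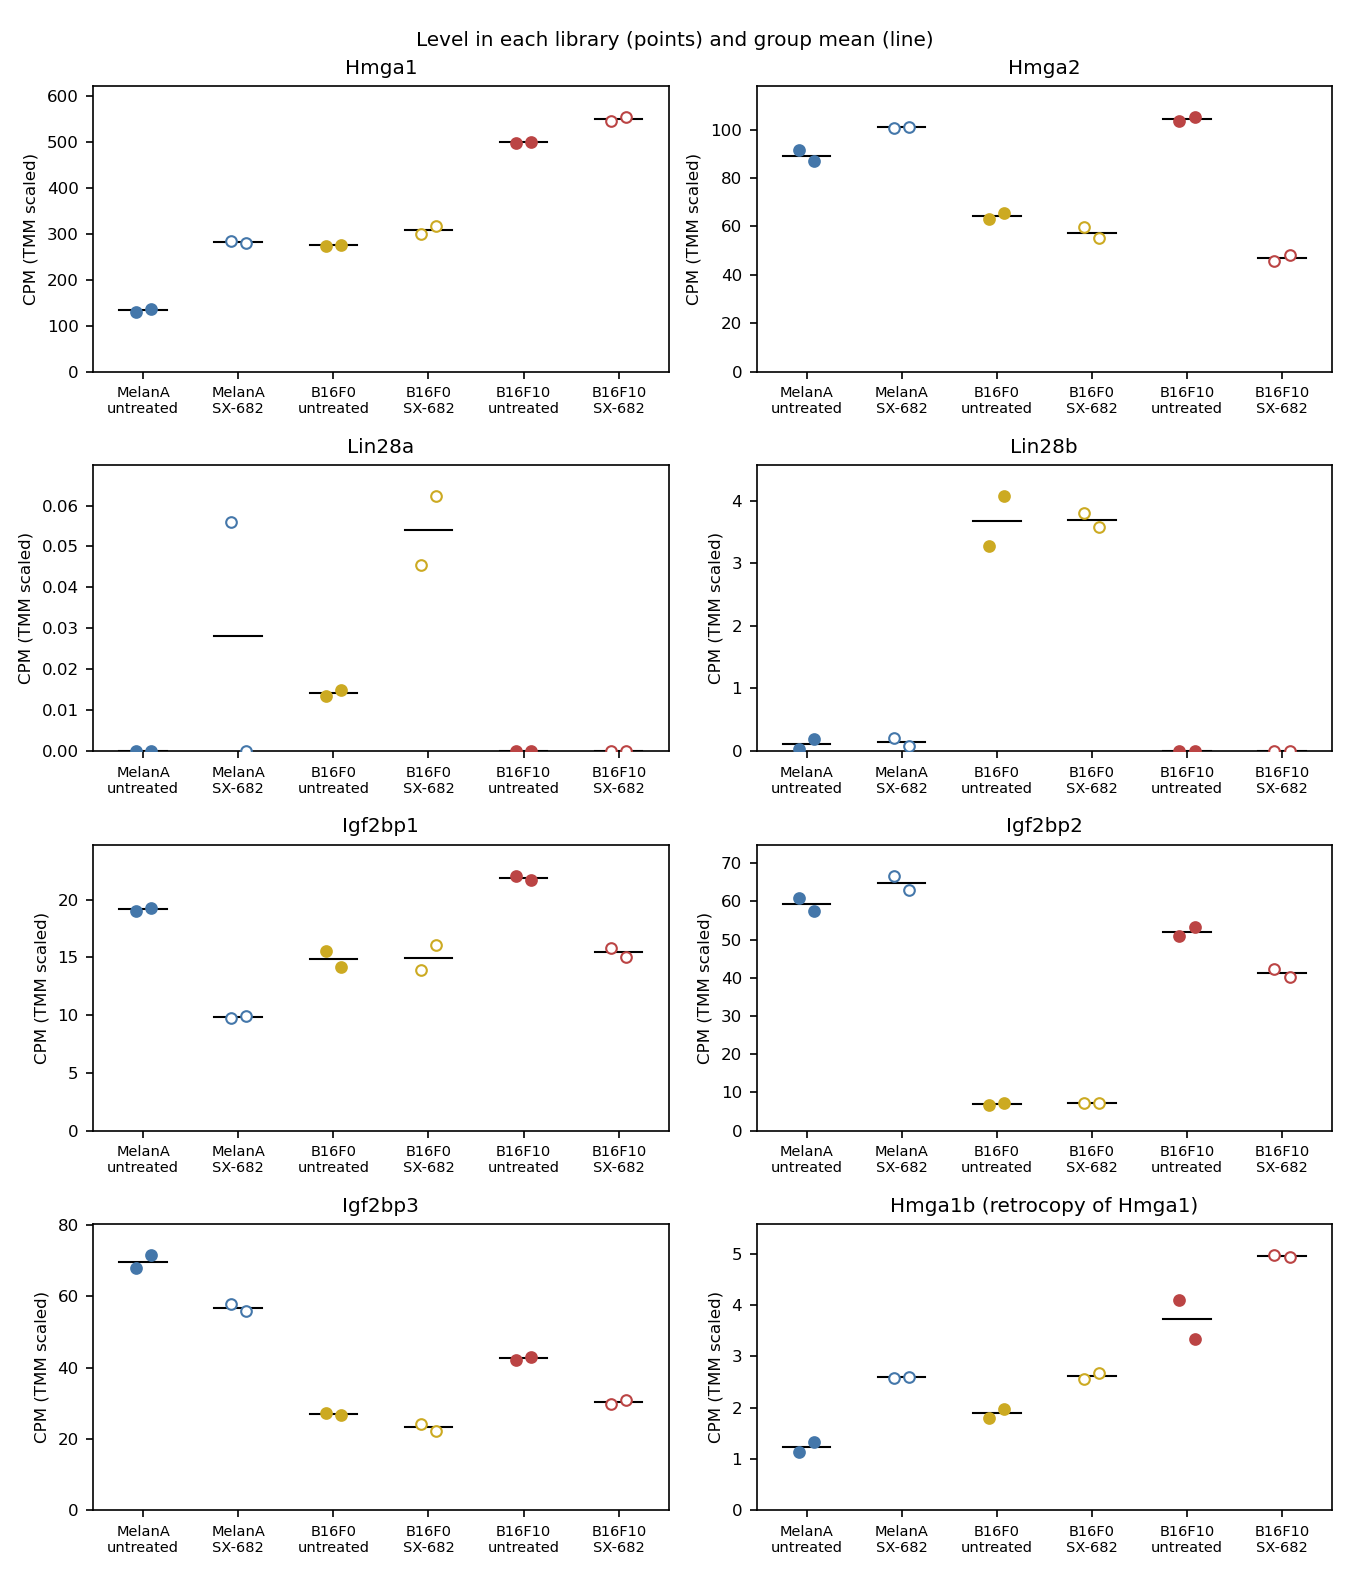
Level of each member and of the Hmga1 retrocopy in each library, in CPM on linear axes that start at 0 (filled points untreated, open points SX-682, line at the group mean). Hmga1 climbs from MelanA to B16F10 and is raised most in MelanA, Hmga2 is lowest in treated B16F10 at 45.7 and 48.4 CPM, Lin28b is above 3 CPM only in B16F0, and Igf2bp2 is near 7 CPM only in B16F0.

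LIN28 transcripts were scarce. Lin28a (chr4:134003330-134018841, minus strand), the form of pluripotent cells, had 0 counts in both untreated MelanA libraries and in all 4 B16F10 libraries. In treated MelanA it had 4 and 0 counts, in untreated B16F0 1 and 1, and in treated B16F0 3 and 3. It did not pass the filter, and all but 1 of its library values were at or under 3 counts, the floor that a count of 0 allows, so no fold change is given.

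Lin28b (chr10:45376620-45486395, minus strand), the form most often found in tumors, was a gene of B16F0 among these lines. Untreated B16F0 had 245 and 274 counts, 3.27 and 4.07 CPM, and treated B16F0 had 251 and 172 counts, 3.81 and 3.57 CPM. MelanA had 3 and 17 counts untreated and 15 and 6 counts with SX-682, between 0.0347 and 0.21 CPM. All 4 B16F10 libraries had 0 counts. B16F0 was above MelanA by a log2 difference of 5.01 (SE 0.40, edgeR adjusted p = 4.9e-12), and by 4.28 to 6.65 when single libraries were left out. Against the floor of 3 counts per library, 0.0483 CPM, Lin28b was at least 76.1-fold lower in untreated B16F10 than in B16F0. No bound is given for B16F10 against MelanA, where 1 of the 2 untreated libraries was itself at 3 counts. The call of B16F10 against MelanA was lost without the second untreated MelanA library (log2 difference -4.28). That of B16F0 against MelanA was kept whichever library was left out.

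SX-682 gave no detectable change of Lin28b where it had counts. The log2 change was 0.01 in B16F0 (95% interval -0.561 to 0.581, edgeR adjusted p = 1) and 0.35 in MelanA (-0.848 to 1.55, adjusted p = 0.67). The difference between these changes, B16F0 minus MelanA, was -0.34 (95% interval -1.66 to 0.983, adjusted p = 0.76). The treated and untreated libraries overlapped in both lines, and these edgeR intervals leave room for a change of up to 0.58 in B16F0 and 1.55 in MelanA. Their width depends on the method. The SE was 0.28 in B16F0 and 0.58 in MelanA here, against 0.76 and 0.88 with DESeq2. In bulk RNA from a culture, a smaller share of cells with the transcript and less transcript per cell cannot be told apart.

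The IGF2BP genes differed by member. Igf2bp1 (chr11:95957163-96005940, minus strand) encodes the paralog known for steadying Myc and Btrc mRNAs. Untreated levels were 19.03 and 19.3 CPM in MelanA, 15.5 and 14.2 CPM in B16F0, and 22.1 and 21.7 CPM in B16F10. B16F0 was below MelanA (log2 difference -0.37, SE 0.071, edgeR adjusted p = 3.1e-05) and below B16F10 (B16F10 minus B16F0 0.56, SE 0.072, adjusted p = 6.5e-08). The difference between B16F10 and MelanA was small at 0.19 (SE 0.069, adjusted p = 0.014). That call was lost with DESeq2 (0.16, adjusted p = 0.052), with a filter of 10 counts in every library (0.13, adjusted p = 0.095), without the first untreated MelanA library (0.19, adjusted p = 0.053) and without the first untreated B16F10 library (0.18, adjusted p = 0.068).

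With SX-682, Igf2bp1 fell in MelanA and in B16F10 and was not called in B16F0. The treated MelanA libraries were at 9.73 and 9.92 CPM (log2 change -0.96, SE 0.074, edgeR adjusted p = 3.3e-12), or 1.95-fold lower. In B16F10 they were at 15.8 and 15.1 CPM (-0.50, SE 0.073, adjusted p = 7.7e-07). In B16F0 they were at 13.9 and 16.1 CPM, on either side of the untreated values, and the log2 change of 0.0036 had a 95% interval of -0.151 to 0.158. The change differed between all 3 pairs of lines, by 0.97 (SE 0.11, edgeR adjusted p = 1.4e-08) for B16F0 minus MelanA, 0.46 (SE 0.10, adjusted p = 0.0007) for B16F10 minus MelanA and -0.51 (SE 0.10, adjusted p = 0.00035) for B16F10 minus B16F0.

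Igf2bp2 (chr16:22059009-22163299, minus strand), the paralog that persists most in adult tissue, set B16F0 apart. Untreated libraries held 60.8 and 57.6 CPM in MelanA and 50.9 and 53.2 CPM in B16F10, but only 6.75 and 7.26 CPM in B16F0. The log2 difference from MelanA was -3.08 (SE 0.058, edgeR adjusted p = 5.8e-28) in B16F0, 8.46-fold lower, and -0.19 (SE 0.046, adjusted p = 0.00067) in B16F10. B16F10 was above B16F0 by 2.90 on the log2 scale (SE 0.060, adjusted p = 2e-26), or 7.44-fold. The line that lacked Igf2bp2 at this level was thus the one that held Lin28b.

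With SX-682, Igf2bp2 fell in B16F10 to 42.3 and 40.2 CPM (log2 change -0.33, SE 0.048, edgeR adjusted p = 7e-07). In MelanA it was at 66.8 and 63.0 CPM (0.13, SE 0.045, adjusted p = 0.015), a call lost without the second untreated library (0.10, adjusted p = 0.16) or the first treated library (0.10, adjusted p = 0.17). In B16F0 it was at 7.12 and 7.31 CPM (0.04, 95% interval -0.12 to 0.205, adjusted p = 0.71). The B16F10 change lay below that of MelanA by -0.47 (SE 0.066, edgeR adjusted p = 1.2e-06) and below that of B16F0 by -0.38 (SE 0.093, adjusted p = 0.0022). B16F0 minus MelanA was -0.09 (95% interval -0.277 to 0.0967, adjusted p = 0.5).

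Igf2bp3 (chr6:49085223-49214957, minus strand), the most strictly fetal paralog, was the only member lowered in all 3 lines, which 11.7% of tested genes were. Untreated levels were 67.9 and 71.6 CPM in MelanA, 27.3 and 26.8 CPM in B16F0, and 42.2 and 43.0 CPM in B16F10. The log2 difference from MelanA was -1.37 (SE 0.046, edgeR adjusted p = 1.7e-21) in B16F0 and -0.71 (SE 0.045, adjusted p = 9.1e-15) in B16F10, and B16F10 was above B16F0 by 0.65 (SE 0.049, adjusted p = 7.5e-13). Treated libraries were at 57.8 and 55.8 CPM in MelanA (log2 change -0.30, SE 0.043, edgeR adjusted p = 1e-06). In B16F0 they were at 24.2 and 22.1 CPM (-0.22, SE 0.053, adjusted p = 0.00085), and in B16F10 at 29.8 and 30.9 CPM (-0.49, SE 0.049, adjusted p = 7.7e-10). No treated library reached an untreated library of its line.

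The larger fall of Igf2bp3 in B16F10 was less firm than the fall itself. The log2 difference was -0.19 against MelanA (SE 0.066, edgeR adjusted p = 0.022), a call lost without the first untreated MelanA (-0.17, adjusted p = 0.077), first treated MelanA (-0.18, adjusted p = 0.07), second untreated B16F10 (-0.20, adjusted p = 0.052) or first treated B16F10 library (-0.18, adjusted p = 0.069). Against B16F0 it was -0.27 (SE 0.072, adjusted p = 0.0043), and without the first treated B16F0 library -0.20 (adjusted p = 0.062). B16F0 minus MelanA was 0.08 (95% interval -0.0621 to 0.218, adjusted p = 0.43). Igf2bp3 shares 18.74% of its exonic bases, 1529 in number, with Malsu1, a mitochondrial ribosome assembly gene on the opposite strand, so that without knowledge of strand some reads could belong to either. Malsu1 moved the other way, with log2 changes of 0.46, 0.32 and 0.54 in MelanA, B16F0 and B16F10.

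As a family, the IGF2BP genes summed to 18.5 ± 0.037 CPM per kb (SD, n = 2) in untreated MelanA, 5.80 ± 0.10 in B16F0 and 14.5 ± 0.27 in B16F10. With SX-682 the sums were 16.7 ± 0.52, 5.36 ± 0.00075 and 10.9 ± 0.15 CPM per kb. Igf2bp2 was 43.2% ± 1.7 of the untreated sum in MelanA, 16.3% ± 1.1 in B16F0 and 48.4% ± 0.68 in B16F10. Igf2bp1 was 10.7% ± 0.092 in MelanA, 26.4% ± 1.3 in B16F0 and 15.6% ± 0.48 in B16F10, and in treated MelanA its share was 6.07% ± 0.27.

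**Figure D3:**
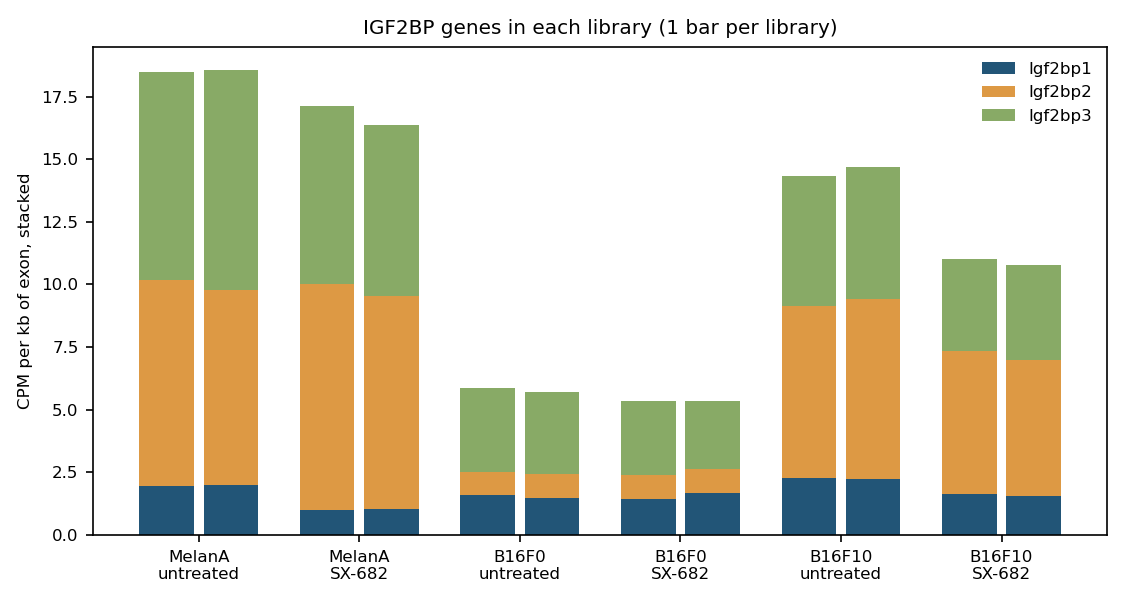
Stacked level of Igf2bp1, Igf2bp2 and Igf2bp3 in CPM per kilobase of exon, 1 bar per library on an axis from 0. B16F0 has the lowest sums, near 5.80 untreated and 5.36 treated, and little Igf2bp2, while B16F10 falls from 14.5 to 10.9 with SX-682.

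Over the 6 tested members, 5 were called with SX-682 in MelanA, 3 raised and 2 lowered, where 23.4% of all tested genes were raised and 24.7% lowered. In B16F0 3 were called, 1 raised and 2 lowered, against 25.1% and 25.0% of all genes. In B16F10 the 5 members with counts were all called, 1 raised and 4 lowered, against 25.5% and 25.3%. A change of at least 1 on the log2 scale was shown by Hmga1 in MelanA, by Hmga2 in B16F10 and by no member in B16F0, and 5.50%, 8.18% and 7.83% of all genes reached it in these 3 lines in that order. The median log2 change of the members was 0.16 in MelanA, 0.01 in B16F0 and -0.49 in B16F10 (5 members), beside a median of 0 over all genes in each. The change itself differed for 3 of 6 members between B16F0 and MelanA, 5 of 5 between B16F10 and MelanA and 4 of 5 between B16F10 and B16F0, where 34.4%, 33.8% and 30.3% of all genes did. The comparisons share their control libraries, so these counts are not independent of each other.

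**Figure D4:**
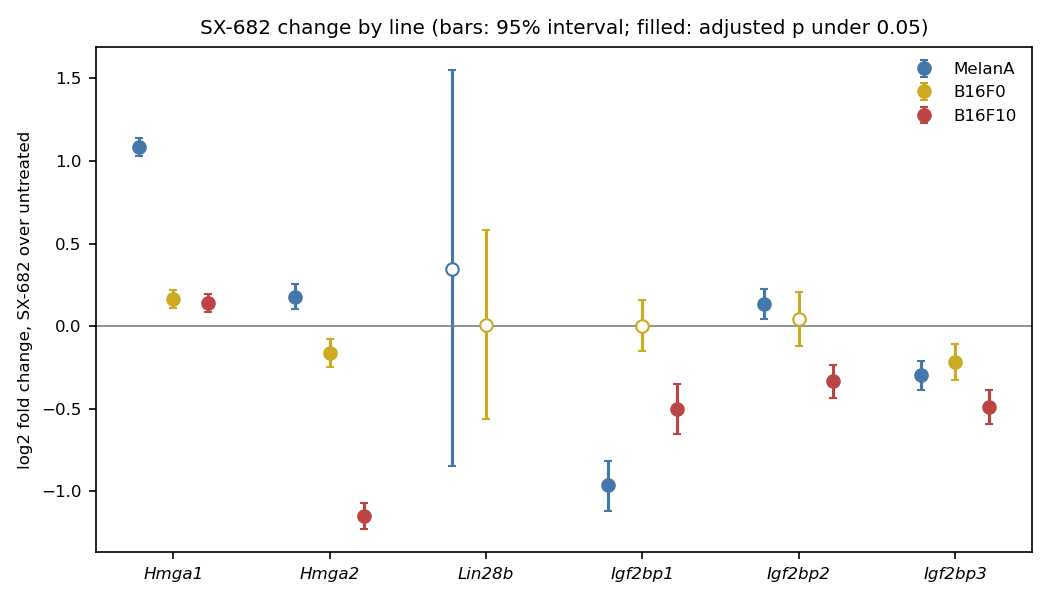
SX-682 change of each tested member in each line, as log2 fold change over untreated with its 95% interval (filled points passed an adjusted p of 0.05). Hmga1 in MelanA (1.09) and Hmga2 in B16F10 (-1.15) stand farthest from 0, Igf2bp3 is below 0 in every line, and Lin28b has wide intervals and no point for B16F10, where it had no counts.

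The list of let-7 processing and turnover held 17 genes, among them some that make let-7 and some that mark or degrade its precursors. With SX-682, 1 was raised and 10 lowered in MelanA, 2 and 8 in B16F0, and 5 and 9 in B16F10. The median log2 changes were -0.23, -0.09 and -0.22. Of all tested genes, 23.4% were raised and 24.7% lowered in MelanA, 25.1% and 25.0% in B16F0, and 25.5% and 25.3% in B16F10. Dicer1, the enzyme that cuts precursor microRNAs to their mature length, fell by 0.73 (SE 0.035, edgeR adjusted p = 7.3e-17) in MelanA, 1.06 (SE 0.036, adjusted p = 2e-20) in B16F0 and 0.73 (SE 0.036, adjusted p = 6.8e-17) in B16F10 on the log2 scale. Dgcr8, the partner of Drosha in the first cut, went from 39.9 to 25.1 CPM in MelanA, from 29.4 to 9.16 CPM in B16F0 and from 46.4 to 18.8 CPM in B16F10, log2 changes of -0.67, -1.68 and -1.31. The next 3 genes were chosen after their values were seen. Drosha itself was not called in any line, with log2 changes of -0.03, 0.06 and -0.00026. The nuclease Dis3l2, which degrades the precursors that LIN28 marks, rose in all 3 lines (0.55, 0.82 and 0.68), and Tut4, which adds that uridine mark, was called in none (0.06, -0.01 and 0.02).

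**Figure D5:**
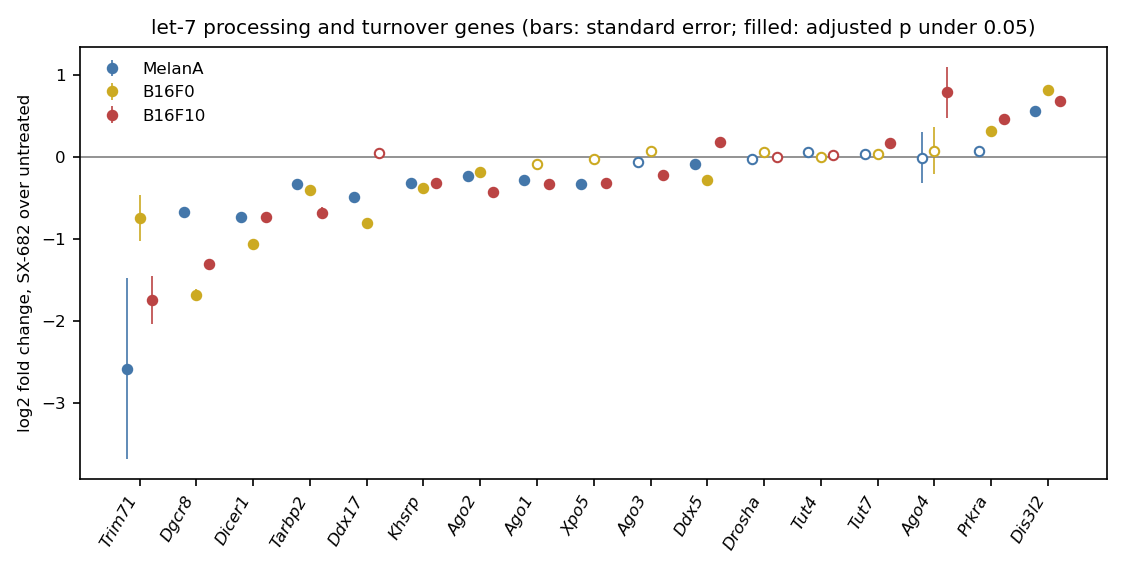
SX-682 change of the 17 let-7 processing and turnover genes in the 3 lines, as log2 fold change with its standard error (filled points passed an adjusted p of 0.05). Dgcr8 and Dicer1 lie below 0 in every line and Dis3l2 above it, and the wide bar of Trim71 in MelanA belongs to a gene at 0.0924 CPM untreated.

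Of the let-7 host and precursor transcripts on the list, 4 had a gene in the table and 2 passed the filter. Mir100hg, a host of let-7a-2, was at 22.2 CPM in untreated MelanA and 17.4 CPM with SX-682 (log2 change -0.35, SE 0.10, edgeR adjusted p = 0.0046), had no counts in B16F0 and was at 0.158 and 0.329 CPM in B16F10. Mir99ahg, the host of let-7c-1, was called only in B16F10, from 0.544 to 1.24 CPM (1.18, SE 0.33, adjusted p = 0.003). Of these 2, 0 were raised and 1 lowered in MelanA, and 1 raised and 0 lowered in B16F10. In B16F0 neither was called, and Mir100hg, without counts there, could not be. Per line, 23.4% to 25.5% of all tested genes were raised and 24.7% to 25.3% lowered.

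Other known let-7 targets were measured as 24 genes outside the members. In MelanA 5 were raised and 12 lowered, in B16F0 4 and 16, and in B16F10 4 and 16. Their median log2 changes were -0.19, -0.33 and -0.39. Of all tested genes, 23.4% to 25.5% were raised and 24.7% to 25.3% lowered per line. Ccnd1, the cyclin of the first gap phase, fell by 0.56, 0.79 and 1.11 on the log2 scale in MelanA, B16F0 and B16F10 (SE 0.022, 0.024 and 0.023, edgeR adjusted p at most 1.2e-18). Dicer1, given above, and Trim71 are on both let-7 lists. Trim71, an embryonic let-7 target named here after its values were seen, was at 0.0924 CPM in untreated MelanA, 3.37 in B16F0 and 3.79 in B16F10, and went to 2.01 CPM in treated B16F0 (-0.75, SE 0.28, adjusted p = 0.026) and 1.13 CPM in treated B16F10 (-1.74, SE 0.29, adjusted p = 8.2e-06).

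Partners of the IGF2BP proteins and mRNAs they bind were measured as 16 genes. In MelanA 4 were raised and 7 lowered, in B16F0 5 and 6, and in B16F10 6 and 7. Their median log2 changes were -0.10, 0.01 and -0.01, where Igf2, without counts in either B16 line, entered as 0. The shares of all tested genes were 23.4% to 25.5% raised and 24.7% to 25.3% lowered per line. Dhx9, an RNA helicase found with IGF2BP1, fell by 1.07, 0.91 and 1.48 (SE 0.025 in each, edgeR adjusted p at most 1.5e-22), and Hnrnpu, an abundant nuclear RNA-binding protein, by 0.37, 0.51 and 0.50 (SE 0.022, 0.023 and 0.022, adjusted p at most 2e-14). Myc, a bound mRNA and a let-7 target, named after its values were seen, changed by 0.60 (SE 0.036) in MelanA, -0.11 (SE 0.038) in B16F0 and -0.48 (SE 0.037) in B16F10. Its direction by line was that of Hmga2.

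The m6A list held 17 genes that write, erase or read the mark. In MelanA 3 were raised and 10 lowered, in B16F0 5 and 7, and in B16F10 3 and 6. Their median log2 changes were -0.14, -0.07 and -0.07. Beside this list and the next, 23.4% to 25.5% of all tested genes were raised and 24.7% to 25.3% lowered per line. The reader Hnrnpa2b1 fell by 0.62, 0.70 and 0.80 (SE 0.022, 0.023 and 0.023, edgeR adjusted p at most 1.2e-19), and the eraser Alkbh5 rose by 0.30, 0.18 and 0.29 (SE 0.024, 0.024 and 0.025, adjusted p at most 2.4e-07). Of 13 other HMG-box and HMGN chromatin genes tested out of 15, 4 were raised and 7 lowered in MelanA, 3 and 6 in B16F0, and 5 and 4 in B16F10 (medians -0.07, -0.11 and 0). Hmgn5 and Tox3 had no counts in B16F10 and entered as 0, so the median of 0 there is no measured change. Hmgb1, the most studied HMG-box protein, fell by 0.70, 0.53 and 0.60 (SE 0.028 in each, edgeR adjusted p at most 6.6e-16), and its paralog Hmgb3 by 0.90, 0.50 and 0.29 (SE 0.042, 0.043 and 0.042, adjusted p at most 6.2e-07).

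Other oncofetal and fetal growth genes numbered 14, of which 13 were tested. In MelanA 2 were raised and 7 lowered, in B16F0 3 and 3, and in B16F10 1 and 5. Their median log2 changes were -0.26, 0 and -0.43. Igf2 and Dlk1 had no counts in either B16 line and entered as 0, so the B16F0 median of 0 is no measured change. Over all tested genes, 23.4% to 25.5% were raised and 24.7% to 25.3% lowered per line. The imprinted gene Mest went from 210.4 to 55.6 CPM in MelanA, from 13.7 to 6.63 CPM in B16F0 and from 3.84 to 1.98 CPM in B16F10 (-1.92, SE 0.042; -1.03, SE 0.072; -0.95, SE 0.12; edgeR adjusted p at most 7.5e-08). Plagl2, a zinc-finger factor and also a let-7 target, fell by 0.26, 0.69 and 0.92 (SE 0.064, 0.074 and 0.072, adjusted p at most 0.00095).

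Across the 12 libraries and 9361 genes with a mean log2 CPM of at least 3, the genes whose log2 level was most like that of a member are given with Pearson's r as a description, since the libraries fall into 6 groups that share lines. For Hmga1 these were Ppfibp2 (0.9901), Cd63 (0.9882) and Ufl1 (0.9871), and for Hmga2 they were Rab1a (0.962), Sh2b1 (0.946) and Klhl25 (0.9427). Lin28b was nearest to Ggt7 (0.9898), Akr1b8 (0.9887) and Foxred1 (0.984), and Igf2bp1 to Tnrc18 (0.9484), Ahctf1 (0.948) and Ajuba (0.9427). Igf2bp2 had Fyb (0.997), Rcan1 (0.9958) and Fscn1 (0.9948), and Igf2bp3 had Sumf1 (0.9971), Rhobtb2 (0.9946) and Cd164 (0.9939).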

How the data were processed

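RNA-seq counts per gene of 12 libraries, deposited by the authors without normalization for 34513 genes on mm10 coordinates, were used. The submitters' processing notes name cutadapt, STAR and DESeq2 without versions; the counting program and its use of strand are not given in the sources used here. Library totals were 48876982 to 85322092. Of the genes, 33821 have their identifier, coordinates and exon length in GENCODE M21, which gave the annotation. R 4.3.3 and edgeR 4.0.16 were used: TMM scaling, edgeR's expression filter (18338 genes), 1 quasi-likelihood fit on all 12 libraries, fold changes with 0.125 as prior count, and p-values adjusted after Benjamini and Hochberg over all tested genes (0.05). Standard errors came from the F statistic. Residual and prior degrees of freedom were 6 and 21.9. An exact permutation test of 2 against 2 libraries cannot go below p = 0.333, so none was used. A floor of 3 counts in a library stands for a count of 0; without molecular identifiers in the sources, it reflects counting error alone. No 2 libraries of a group agreed within sampling noise (chi-square per gene 2.82 to 4.97). The fit was tested on simulated counts with known changes.

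Genes named are the members, their overlapping or like-named genes, the 3 genes most like each tested member, and from each list the 2 genes with the smallest worst adjusted p over the SX-682 comparisons; marker genes of cell types named singly, and the other genes marked so in the text, were chosen after their values were seen. Members and lists were chosen with earlier results of these data known. Lists share genes. Alternatives were DESeq2 1.42.0, RLE and upper-quartile scaling, other filters, separate fits, a replicate block, a prior count of 2, each library left out and, added later, Hmga1 with Hmga1b.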

Additional observations from a re-analysis of the deposited data

Results flagged for a closer look

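Each of the following is a difference between 2 lines in the log2 change of a member with SX-682, tested by the interaction of line and treatment in edgeR's quasi-likelihood fit and past an adjusted p of 0.05. For Hmga1 it was -0.92 for B16F0 minus MelanA and -0.94 for B16F10 minus MelanA. For Hmga2 it was -0.34 for B16F0 minus MelanA, -1.33 for B16F10 minus MelanA and -0.99 for B16F10 minus B16F0, with a rise in MelanA and a fall in both B16 lines. For Igf2bp1 it was 0.97, 0.46 and -0.51 in the same order, with no call in B16F0 itself. For Igf2bp2 it was -0.47 for B16F10 minus MelanA and -0.38 for B16F10 minus B16F0. For Igf2bp3 it was -0.19 for B16F10 minus MelanA and -0.27 for B16F10 minus B16F0, and these calls depend on single libraries as given above.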

How the results depend on the processing

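All counts of called genes stayed within 1.5 times the reported ones under every alternative, and so did all counts of called members. Of the single member values under an alternative, 992 kept direction and side of the threshold, 12 lost the call and 12 changed sign, and the sign changes were all in values that were not called. Without a low-count filter the B16F0 change of Igf2bp1 was -0.0025. The untreated difference of Igf2bp1 between B16F10 and MelanA was 0.16 with DESeq2 and 0.13 with 10 counts in every library. Leaving out 1 library at a time gave a range of -0.47 to 1.995 for the MelanA change of Lin28b, 0.10 to 0.18 for that of Igf2bp2, and in B16F0 -0.14 to 0.17 for Lin28b, -0.10 to 0.11 for Igf2bp1 and -0.011 to 0.0902 for Igf2bp2. The untreated B16F10 minus MelanA difference ranged from 0.18 to 0.22 for Igf2bp1 and from -6.66 to -4.28 for Lin28b, whose fitted value depends on the prior count and is no bound. Differences in change ranged from -1.99 to 0.48 for Lin28b and -0.0031 to 0.13 for Igf2bp3 (B16F0 minus MelanA), from -0.24 to -0.17 for Igf2bp3 (B16F10 minus MelanA), and from -0.33 to -0.20 for Igf2bp3 and -0.0698 to 0.0108 for Hmga1 (B16F10 minus B16F0). With 1 library left in a group, that library is assumed to vary like the others. The cause of these losses was not tested beyond the smaller number of libraries or genes. Other scalings moved the median of all genes by at most 0.053 (log2). No pairing of libraries by replicate number was seen (correlation of deviations -0.0276, -0.0112 and -0.00892 in MelanA, B16F0 and B16F10). With 2 libraries per group this cannot exclude a pairing, and the labels do not say what a number shares. With the replicate block 8824, 9150 and 9302 genes were called with SX-682 in these lines, and no call on a member changed. Depth limits Lin28a, which lies near the floor in every line, and Lin28b, which lies near it outside B16F0. Levels per kb without a scaling factor moved by more than 1 SD in 20 cases and by less in 22.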

Other observations

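Several fetal growth genes outside the members were higher in untreated MelanA than in the untreated melanoma lines. Of 13 tested, 2 were higher and 9 lower in untreated B16F0 than in untreated MelanA, and 4 and 8 in B16F10. Of all tested genes, 75.9% and 74.2% were called in these pairs in either direction. These shares are not split by direction, so whether the list leans more than other genes was not tested. Plagl1, a zinc-finger gene, went the other way, at 148 CPM in untreated MelanA, 339 in B16F0 and 369 in B16F10. Plag1 was at 0.835, 1.07 and 3.23 CPM, called against MelanA only in B16F10 (log2 difference 1.95, SE 0.21, edgeR adjusted p = 1.7e-09). Igf2r was also called higher in B16F10, at 556 CPM against 511 in MelanA. H19, an imprinted noncoding RNA of fetal growth, was at 4450 CPM in untreated MelanA, 0.0133 in B16F0 and 0 in B16F10. Peg3, an imprinted zinc-finger gene, was at 801 CPM in MelanA and under 0.01 CPM in both B16 lines, and Afp, the fetal liver secreted protein gene, at 36.8 CPM in MelanA, 0.0475 in B16F0 and 0.466 in B16F10. Igf2, the mRNA that gave the IGF2BP proteins their name, was at 0.213 CPM in untreated MelanA and had no counts in either B16 line. Sall4, a pluripotency factor, followed the pattern of Lin28b, at 2.57 CPM in untreated B16F0, 0 in MelanA and 0.0791 in B16F10. Hmgn5, a nucleosome-binding relative, was at 28.2 CPM in MelanA and 46.7 CPM in B16F0 and had no counts in B16F10. These genes were chosen after their values were seen.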
